A study of Homo sapiens with 9 samples.

Results

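The 9 genes described here, *CCNG1*, *SLC7A1*, *NDRG3*, *AP3M2*, *CD320*, *GALNT10*, *FUNDC2*, *TMED3* and *SLC35A4*, are known targets of the microRNA miR-122-5p. They were taken by gene symbol from the count tables of an RNA-seq experiment on *TUG1* knockdown, where each of the 9 had 1 row among the 12854 genes listed for both knockdown lines. No measured value entered the choice, although it was made with earlier results of the same data known. All libraries came from HepG2, a human hepatocellular carcinoma cell line grown in low-glucose medium. The cells carried a lentiviral Tet-pLKO-Puro vector whose short hairpin RNA (shRNA) is made upon doxycycline treatment. Control cells (sh-Con, 3 libraries) carried a control shRNA, and 2 stable lines carried different shRNAs against the long non-coding RNA *TUG1* (sh1-*TUG1* and sh2-*TUG1*, 3 libraries each). The libraries of a group were technical replicates by the design. Every p-value and interval below therefore measures the spread between libraries and not between independently made lines. The study addressed whether *TUG1* holds miR-122-5p away from its target messenger RNAs, and the question of each comparison is how the levels of these targets differed between the lines.

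A microRNA guides Argonaute proteins to messenger RNAs whose 3′ untranslated region (3′ UTR) pairs with the seed near the microRNA's 5′ end, and such pairing usually lowers the level and the translation of the messenger RNA. miR-122 is the dominant microRNA of hepatocytes, where it restrains genes of lipid, iron and amino acid metabolism, and it is low in many liver cancers and in HepG2 cells. A transcript that binds a microRNA and keeps it from its targets is called a sponge, and loss of a sponge would leave more of the microRNA to act. Small RNAs were not sequenced in these libraries, so the level of miR-122-5p itself is not part of the values below.

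The mature miR-122-5p is shown first, with its seed (bases 2 to 8) in capitals, because every target site below is read against it. RefSeq (GRCh38.p14) places its 22 bases at chr18:58451088-58451109 on the plus strand, and no other of the 2370 mature names in that table shares the seed.
hsa-miR-122-5p: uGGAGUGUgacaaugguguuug

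The coding transcript with the longest coding sequence was searched for each gene on the sense strand of its 3′ UTR (GENCODE release 29, GRCh38). An 8mer site reads ACACTCCA, which pairs with the whole seed and has an A opposite base 1 of the microRNA. A 7mer-m8 site reads ACACTCC without that A, and a 7mer-A1 site reads CACTCCA without the pair to base 8. An 8mer holds both shorter words and was counted once, as an 8mer. Of the 9 genes, 7 (77.8%) held at least 1 8mer or 7mer-m8 site, 11 sites in all, of which 5 were 8mers and 6 were 7mer-m8 sites. Among the 11846 tested genes with a 3′ UTR, 7.10% held such a site, 2.58% an 8mer, 0.667% 2 or more sites and 0.0929% 3 or more. The median 3′ UTR was 1754 bases for the 9 genes and 970 bases for all of these genes. A match is a description of the sequence and not of binding.

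The sites of the genes with a match, other than the 1 site of *AP3M2*, are printed below, each as 22 bases of the 3′ UTR that end opposite base 1 of miR-122-5p, with the letters of the matched word in capitals. The matched words are alike because the search asked for them, and only the bases around them were free to differ. *CCNG1* had 1 site (chr5:163444488-163444509, plus strand). *SLC7A1* had 3, at chr13:29513382-29513403, chr13:29513109-29513130 and chr13:29510363-29510384 (minus strand, in 5′ to 3′ order of the transcript). *CD320* had 2, at chr19:8302279-8302300 and chr19:8302171-8302192 (minus strand). *GALNT10* had 2, at chr5:154418657-154418678 and chr5:154419227-154419248 (plus strand). *FUNDC2* had 1 (chrX:155054711-155054732, plus strand) and *SLC35A4* had 1 (chr5:140568818-140568839, plus strand). *NDRG3* held only a 7mer-A1 match (chr20:36653466-36653487, minus strand). The last 2 lines are the sites of *ALDOA* (chr16:30070225-30070246, plus strand) and *PKM* (chr15:72199123-72199144, minus strand), glycolytic enzymes that the study examined as miR-122-5p targets.
CCNG1, 8mer: tcagactagattgaACACTCCA
SLC7A1, 8mer: tccatgaaattgtgACACTCCA
SLC7A1, 7mer-m8: gcaccatttcacacACACTCCt
SLC7A1, 8mer: tggtgcaagaagctACACTCCA
CD320, 7mer-m8: ttgagggtccctggACACTCCc
CD320, 7mer-m8: gccctgtgcttaagACACTCCt
GALNT10, 7mer-m8: ggagggagggacaaACACTCCc
GALNT10, 8mer: agtcagtgcaagtcACACTCCA
FUNDC2, 8mer: agccagcagcctctACACTCCA
SLC35A4, 7mer-m8: cctggcttaagccgACACTCCt
NDRG3, 7mer-A1: catccttcaaatgacCACTCCA
ALDOA, 8mer: ccaggctgcccccaACACTCCA
PKM, 8mer: ctgtcctgcagcaaACACTCCA

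**Figure D1:**
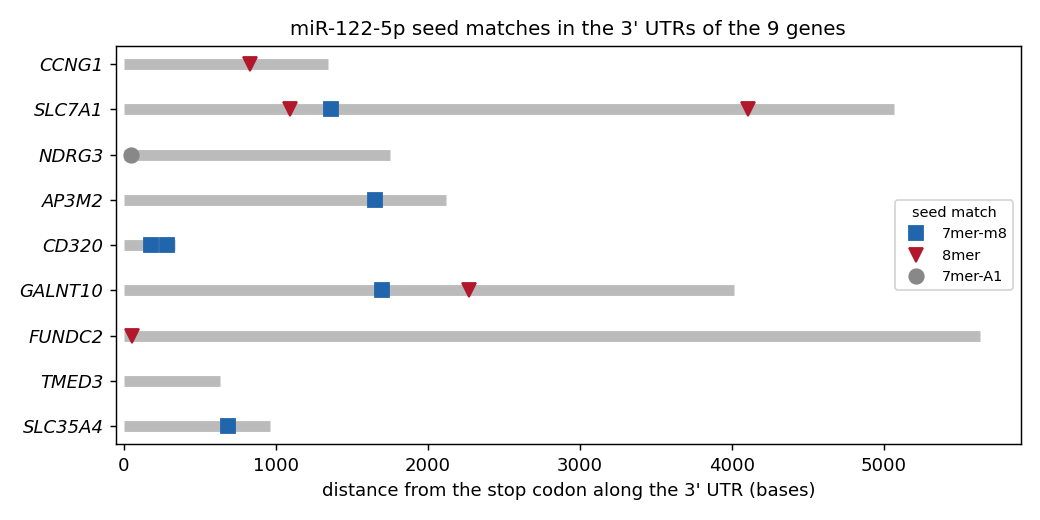
Each grey bar is the 3′ UTR of 1 gene, drawn to scale from the stop codon, with distance in bases on the horizontal axis and marks at the miR-122-5p seed matches. *SLC7A1* carries 3 marks over 5070 bases, *FUNDC2* carries 1 mark at base 53 of 5631, and *TMED3* carries none.

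The libraries held between 33051617 and 39393293 reads assigned to genes. Levels are given as normalised read counts in CPM, which are counts scaled to a common library size with TMM factors over the 9 libraries, and error is the SD over the 3 libraries of a group. Changes are log2 fold changes of the first named line over the second, with the standard error (SE), from edgeR's quasi-likelihood test fitted to every row of a table. A gene was called where the Benjamini-Hochberg adjusted p was under 0.05, and counted as a differentially expressed gene (DEG) where its fold change was also over 1.5. Both knockdown lines were compared with the same 3 sh-Con libraries, so the 2 comparisons are not independent of each other. The *TUG1* row was not analysed here, so the labels of the lines were not checked against the targeted gene. All 12 liver markers looked up, albumin, alpha-fetoprotein and *HNF4A* among them, were listed, and their summed level was 50396 to 53148 CPM in the control, 53845 to 56388 CPM in sh1-*TUG1* and 55916 to 59820 CPM in sh2-*TUG1*. Single markers went both ways. In sh1-*TUG1*, 3 were called lower and 5 higher (median log2 fold change 0.12), where 12.3% and 12.5% of all genes were. In sh2-*TUG1*, 7 were called lower and 3 higher (median -0.27), where 21.9% and 21.6% of all genes were.

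Compared per kilobase of transcript, the 9 genes spanned a wide range in sh-Con cells. *CCNG1* was highest at 92.4 ± 4.39 CPM per kb (SD, n = 3), at percentile 93.8 of the 11729 genes with a transcript length. *TMED3* (51.4 ± 2.72 CPM per kb), *CD320* (47.8 ± 3.95) and *SLC7A1* (45.0 ± 1.22) followed, and neighbours in this order overlapped in their library values. *NDRG3* stood apart at 18.8 ± 1.14 CPM per kb. *FUNDC2* (8.16 ± 0.393) and *GALNT10* (8.05 ± 0.580) overlapped each other near the middle of all genes, at percentiles 45.6 and 45.2. *AP3M2* (2.59 ± 0.146) and *SLC35A4* (1.43 ± 0.206) were lowest, at percentiles 19.8 and 12.1. These levels rest on the length of 1 transcript per gene, and use of shorter transcripts would change them.

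**Figure D2:**
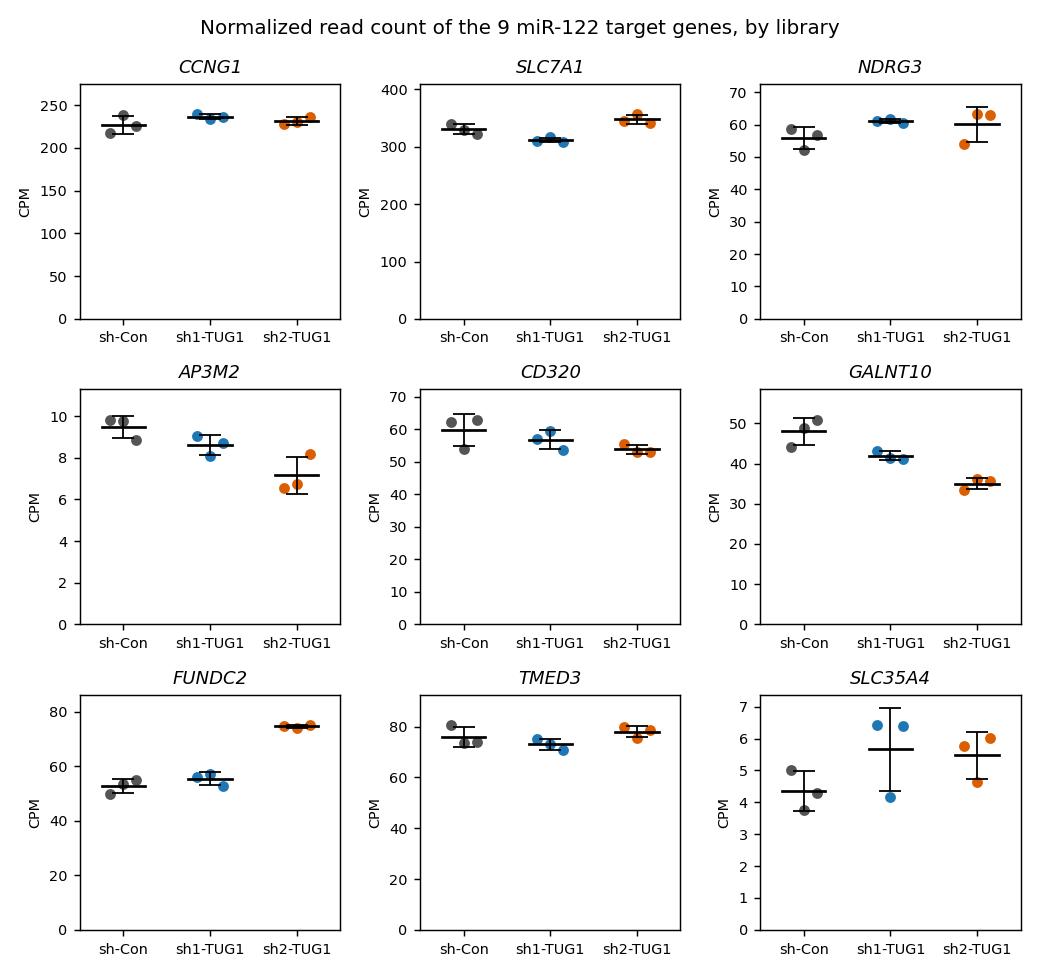
Each panel gives the normalised read count of 1 gene in CPM, from 0, with 1 point per library, a bar at the group mean and whiskers of 1 SD (n = 3 per group). The sh2-*TUG1* libraries sit above all others for *FUNDC2* (74.0 to 74.9 CPM) and below all others for *GALNT10* (33.3 to 36.1 CPM). For *AP3M2* (6.55 to 8.16 CPM) they sit below sh-Con but overlap sh1-*TUG1*, while the groups overlap for *CCNG1*, *CD320* and *SLC35A4*.

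In sh1-*TUG1* cells none of the 9 targets was called, and in sh2-*TUG1* cells *GALNT10* and *AP3M2* fell and *FUNDC2* rose. For sh1-*TUG1*, edgeR's quasi-likelihood test called 0 targets lower and 0 higher, and 1 (*GALNT10*) had an unadjusted p under 0.05. Over the 13017 genes of that table, 12.3% were called lower, 12.5% higher, 24.8% in either direction, and 37.3% had an unadjusted p under 0.05. The same libraries tested with DESeq2 called 1 target, *GALNT10*. The fold changes of the 9 targets ran from -0.20 to 0.38 on the log2 scale, 5 below zero and 4 above, with a median of -0.056 against 0.0027 over all genes. Without regard to the test, the library values of 2 targets lay wholly below sh-Con (*SLC7A1* and *GALNT10*) and those of 1 wholly above (*NDRG3*). Such separation was seen downwards in 20.4% and upwards in 21.3% of the 12854 shared genes.

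For sh2-*TUG1*, 2 of the 9 targets were called lower and 1 higher. The background was 21.9% lower, 21.6% higher and 43.5% in either direction over 12953 genes, so the share of targets called in this line was no larger than that of all genes. An unadjusted p under 0.05 was found for 4 targets, against 51.5% of all genes. The fold changes ran from -0.46 to 0.50, 3 below zero and 6 above, with a median of 0.038 against -0.0048 over all genes. Values lay wholly below sh-Con for 2 targets and wholly above for 2, where 27.4% and 27.1% of the shared genes did so.

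No target passed the DEG call in either line. For sh1-*TUG1* the share of all genes that did was 2.52% lower and 2.44% higher, and for sh2-*TUG1* it was 8.97% and 4.35%. The targets also moved less than the typical gene. The median size of their log2 fold change, without its sign, was 0.084 and 0.15 in the first and the second line, against 0.15 and 0.22 over all genes. This difference in size was not tested, and the genes it is set against were not matched to the targets by level.

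Set directly against each other, the 2 knockdown lines differed in 3 targets. Relative to sh1-*TUG1*, sh2-*TUG1* had less *GALNT10* and more *SLC7A1* and *FUNDC2*, which makes 1 called lower and 2 called higher by edgeR's quasi-likelihood test over all 9 libraries. Of the 12854 genes, 21.7% were called lower, 21.0% higher and 42.7% in either direction, 50.5% had an unadjusted p under 0.05, and 8.04% and 2.56% passed the DEG call downwards and upwards. Library values were wholly lower in sh2-*TUG1* for 1 target and wholly higher for 3, with 27.6% and 27.8% of all genes so separated.

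**Figure D3:**
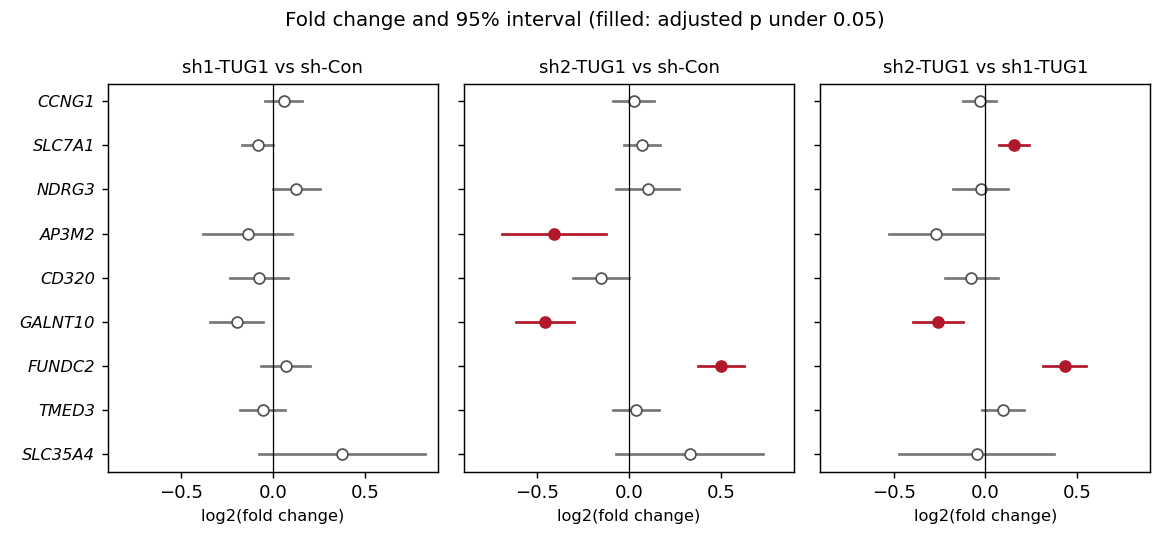
Log2 fold change (horizontal axis) of each of the 9 genes with its 95% confidence interval, for sh1-*TUG1* over sh-Con, sh2-*TUG1* over sh-Con and sh2-*TUG1* over sh1-*TUG1*; filled points have an adjusted p under 0.05. No point is filled in the first panel, and the filled points of the second panel are *AP3M2* and *GALNT10* to the left of zero and *FUNDC2* to its right.

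Among the genes of nutrient uptake, *SLC7A1* encodes CAT1, a plasma membrane carrier of arginine, lysine and ornithine and one of the best known miR-122 targets. It lies at chr13:29509410-29595688 on the minus strand. Its level was 340, 330 and 322 CPM in the sh-Con libraries, 310, 316 and 309 CPM in sh1-*TUG1*, and 345, 357 and 342 CPM in sh2-*TUG1*. All sh1-*TUG1* libraries were below and all sh2-*TUG1* libraries above the sh-Con libraries. Neither difference from sh-Con passed edgeR's quasi-likelihood test, with a log2 fold change of -0.084 (SE 0.0389, adjusted p = 0.148) in sh1-*TUG1* and 0.071 (SE 0.0438, adjusted p = 0.215) in sh2-*TUG1*. The 2 lines differed from each other by 0.16 (SE 0.0374, adjusted p = 0.00547), which is 11.5% more *SLC7A1* in sh2-*TUG1*. The gene with the most seed matches of the 9 therefore had opposite signs against the control in the 2 lines. The 95% intervals against sh-Con were -0.17 to 0.0032 and -0.027 to 0.17, and rest on the spread between libraries alone.

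Other genes of amino acid transport, and of the use of arginine and ornithine, moved in both directions. *SLC3A2*, the heavy chain that carries several amino acid transporters to the membrane, rose in both lines by 0.29 (SE 0.0473, adjusted p = 0.00188) and 0.88 (SE 0.0616, adjusted p = 6.56e-06). Its light-chain partner *SLC7A6* was at 0.047 (adjusted p = 0.697) in sh1-*TUG1* and rose by 0.76 (adjusted p = 2.36e-05) in sh2-*TUG1*. *ARG2*, the mitochondrial arginase, was at 0.18 (adjusted p = 0.105) and rose by 0.77 (adjusted p = 4.65e-05) in sh2-*TUG1*. *ODC1*, which makes putrescine from ornithine, fell by 0.26 and 0.28 (adjusted p = 0.00697 and 0.00461). *SLC7A2*, the liver carrier most like CAT1, fell by 0.24 in sh1-*TUG1* (adjusted p = 0.00801) and was at -0.022 in sh2-*TUG1* (adjusted p = 0.793). *SLC7A5* fell by 0.16 in sh1-*TUG1* (adjusted p = 0.0160) and was at -0.076 in sh2-*TUG1* (adjusted p = 0.184). *ARG1*, the liver arginase, fell by 1.17 and 0.89 from a low level of 2.39 CPM in sh-Con. Of the 7 genes of this list that were tested, 4 were called lower and 1 higher in sh1-*TUG1* (12.3% and 12.5% of all genes), and 2 lower and 3 higher in sh2-*TUG1* (21.9% and 21.6% of all genes).

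*CD320* encodes the receptor that takes up vitamin B12 bound to transcobalamin, and lies at chr19:8302127-8308356 on the minus strand. The annotation places a further coding gene model on the same strand over it, which was not analysed here, so reads shared between the models could be counted to either. Levels were 62.3, 54.1 and 62.9 CPM in the sh-Con libraries, 57.0, 59.6 and 53.7 CPM in sh1-*TUG1*, and 55.4, 52.9 and 53.1 CPM in sh2-*TUG1*. The second sh-Con library was the lowest of its group and overlapped both knockdown lines. The log2 fold change was -0.075 (SE 0.0708, adjusted p = 0.481) in sh1-*TUG1* and -0.15 (SE 0.0685, adjusted p = 0.0971) in sh2-*TUG1* by edgeR's quasi-likelihood test. Without that library, the sh2-*TUG1* change of *CD320* was -0.22 with an adjusted p of 0.0211.

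Genes that process vitamin B12 inside the cell moved in both directions in sh2-*TUG1*. *MTR*, the B12-dependent methionine synthase, fell by 0.38 (adjusted p = 0.000971), *MMUT*, the B12-dependent methylmalonyl-CoA mutase, fell by 0.34 (adjusted p = 0.0124), and *ABCD4*, a lysosomal B12 exporter, fell by 0.20 (adjusted p = 0.0333). *MTRR*, which reactivates methionine synthase, rose by 0.39 (adjusted p = 0.000394) in sh2-*TUG1* and by 0.27 (adjusted p = 0.00704) in sh1-*TUG1*. It was the only 1 of the 7 genes of this list called in sh1-*TUG1*, where 24.8% of all genes were called. In sh2-*TUG1*, 3 of the 7 were called lower and 1 higher, where 21.9% and 21.6% of all genes were. *LMBRD1*, *MMACHC* and *MMADHC* were called in neither line.

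*SLC35A4* belongs by sequence to the nucleotide sugar transporters of the Golgi and lies at chr5:140564456-140569103 on the plus strand. *APBB3* overlaps it in antisense, and whether reads were counted by strand is not given in the sources used here. It was the least abundant target, with 164, 127 and 160 reads (5.00, 3.76 and 4.29 CPM) in sh-Con. There were 6.41, 4.16 and 6.39 CPM in sh1-*TUG1* and 5.75, 4.64 and 6.01 CPM in sh2-*TUG1*. The second library was the lowest in all 3 groups, and the groups overlapped. The log2 fold changes of 0.38 (SE 0.202, adjusted p = 0.206) and 0.33 (SE 0.178, adjusted p = 0.162) had 95% intervals of -0.07 to 0.83 and -0.07 to 0.73 in edgeR's quasi-likelihood test. These intervals, 0.951 to 1.78 and 0.953 to 1.66 as folds, held both no change and an increase past the 1.5-fold limit. These libraries could not tell the 2 apart. The related transporters *SLC35A1*, *SLC35A2*, *SLC35A3* and *SLC35A5* were called in neither line, with log2 fold changes between -0.18 and 0.15.

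Among the genes of the Golgi and of vesicle traffic, *GALNT10* had the clearest decrease. It encodes an N-acetylgalactosaminyltransferase that attaches the first sugar of mucin-type O-glycans to proteins in the Golgi, and lies at chr5:154190730-154420984 on the plus strand. Levels were 44.1, 48.9 and 50.9 CPM in the sh-Con libraries, 43.2, 41.4 and 41.2 CPM in sh1-*TUG1*, and 33.3, 36.1 and 35.6 CPM in sh2-*TUG1*. The 3 groups did not overlap and were ordered sh-Con, sh1-*TUG1*, sh2-*TUG1* from high to low. *GALNT10* fell by 0.46 on the log2 scale in sh2-*TUG1* (SE 0.0697, 95% interval -0.61 to -0.30, adjusted p = 0.000694), so that its level fell by 27.2%. In sh1-*TUG1* the log2 fold change was -0.20 (SE 0.0645, 95% interval -0.34 to -0.05, adjusted p = 0.0511), just outside the threshold. Of 13 alternatives, 4 called it. With RLE size factors, DESeq2 or all 9 libraries in 1 fit the adjusted p was 0.0471, 0.0401 and 0.0345, and without the first sh-Con library it was 0.00418. The other alternatives did not call it, among them library size alone (0.0922) and the replicate block (0.0849), and the highest adjusted p was 0.154. The difference between the 2 lines, -0.26 (SE 0.062), was itself called (adjusted p = 0.00559). *GALNT10* overlaps *MFAP3* on the same strand, which was at 0.11 (adjusted p = 0.376) in sh1-*TUG1* and rose by 0.36 (adjusted p = 0.0210) in sh2-*TUG1*, in the other direction.

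Other genes of this kind of glycosylation were called in both directions in sh2-*TUG1*. *GALNT1* fell by 0.16 and 0.15 (adjusted p = 0.0301 and 0.0252), and *GALNT2* was at -0.039 in sh1-*TUG1* (adjusted p = 0.674) and fell by 0.19 in sh2-*TUG1* (adjusted p = 0.0288). *C1GALT1*, which adds the next sugar of the core 1 O-glycan, and its chaperone *C1GALT1C1* rose in sh2-*TUG1* by 0.22 and 0.30 (adjusted p = 0.0104 and 0.00842). Of the genes of this list, 1 of 8 was called lower and 0 higher in sh1-*TUG1* (12.3% and 12.5% of all genes), and 2 of 7 lower and 2 higher in sh2-*TUG1* (21.9% and 21.6% of all genes).

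*AP3M2* encodes a medium subunit of the AP-3 adaptor, which sorts cargo from endosomes towards lysosomes and related organelles. It lies on chromosome 8 from 42152946 to 42171673 on the plus strand and has 1 7mer-m8 match at base 1650 of a 2122-base 3′ UTR. The levels were 9.82, 9.76 and 8.87 CPM in sh-Con (322, 330 and 331 reads), 9.05, 8.11 and 8.70 CPM in sh1-*TUG1*, and 6.55, 6.73 and 8.16 CPM in sh2-*TUG1* (213, 225 and 315 reads). The sh2-*TUG1* libraries lay below all sh-Con libraries, while sh1-*TUG1* overlapped both other groups. *AP3M2* fell by 0.41 in sh2-*TUG1* (SE 0.127, adjusted p = 0.0263), so that its level fell by 24.6%. This call was lost when any of 4 single libraries was left out, with adjusted p of 0.0627 and 0.0727 without the first and the second sh-Con library and 0.0885 and 0.0841 without the first and the second sh2-*TUG1* library. In sh1-*TUG1* the change was -0.14 (SE 0.108, adjusted p = 0.389), and the difference between the lines was -0.27 (SE 0.118, adjusted p = 0.0878). The other subunits of the complex, *AP3M1*, *AP3B1*, *AP3S1* and *AP3S2*, were called in neither line, and *AP3D1* was at -0.057 (adjusted p = 0.428) in sh1-*TUG1* and rose by 0.27 (adjusted p = 0.00175) in sh2-*TUG1*.

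*TMED3* encodes a cargo adaptor of the p24 family that cycles between the endoplasmic reticulum and the Golgi, and lies at chr15:79311062-79427432 on the plus strand. The searched transcript held no seed match in its 633-base 3′ UTR, although 1 of the 3 coding transcripts of the gene did. Levels were 80.5, 73.3 and 73.7 CPM in the sh-Con libraries, 75.2, 73.1 and 70.8 CPM in sh1-*TUG1*, and 79.7, 75.7 and 78.7 CPM in sh2-*TUG1*. Both knockdown lines overlapped sh-Con. The log2 fold changes were -0.056 (SE 0.055, 95% interval -0.18 to 0.07, adjusted p = 0.502) and 0.038 (SE 0.0565, 95% interval -0.09 to 0.16, adjusted p = 0.615). Of its relatives, *TMED5* and *TMED9* fell in sh1-*TUG1* and rose in sh2-*TUG1*. In sh1-*TUG1*, *TMED2*, *TMED5*, *TMED7* and *TMED9* fell by 0.15 to 0.22 and *TMED4* rose by 0.17. In sh2-*TUG1*, *TMED1*, *TMED5*, *TMED6* and *TMED9* rose, by 0.26, 0.17, 0.87 and 0.15 respectively, and 5 of the 9 relatives were not called. Over all genes, 12.3% were called lower and 12.5% higher in sh1-*TUG1*, and 21.9% and 21.6% in sh2-*TUG1*.

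*FUNDC2* showed the largest change of the 9 targets between any pair of groups. It encodes a protein of the outer mitochondrial membrane, related to the mitophagy receptor FUNDC1, and lies at chrX:155025980-155060303 on the plus strand. Levels were 49.8, 53.4 and 54.8 CPM in the sh-Con libraries, 56.0, 57.3 and 52.7 CPM in sh1-*TUG1*, and 74.9, 74.0 and 74.9 CPM in sh2-*TUG1*. The sh2-*TUG1* libraries were far above the other 6, which overlapped. *FUNDC2* rose in sh2-*TUG1* by 0.50 on the log2 scale (SE 0.0566, 95% interval 0.37 to 0.63, adjusted p = 0.000122), a level 41.4% higher. In sh1-*TUG1* the change was 0.069 (SE 0.0596, 95% interval -0.06 to 0.20, adjusted p = 0.439), and the lines differed by 0.43 (SE 0.0533, adjusted p = 6.31e-05). *FUNDC2* thus rose in 1 line while carrying an 8mer 53 bases from its stop codon, the site nearest to a stop codon among the 9 targets apart from the 7mer-A1 match of *NDRG3*. *F8* overlaps the locus on the other strand and was at 1.10 CPM in the sh-Con libraries, with changes of -0.24 (adjusted p = 0.593) and -0.11 (adjusted p = 0.788).

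Other genes of mitophagy moved in both directions. *FUNDC1* was at -0.019 (adjusted p = 0.911) and -0.076 (adjusted p = 0.633). *BNIP3* and *BNIP3L*, mitophagy receptors that are induced in hypoxia, fell in both lines, *BNIP3* by 0.68 and 0.78 and *BNIP3L* by 0.64 and 0.60. *ULK1*, the kinase that starts autophagy, rose by 0.36 and 0.46, and *PGAM5*, a mitochondrial phosphatase that acts on FUNDC1, rose by 0.16 and 0.23.

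Among the regulators of growth and stress responses, *CCNG1* was the most abundant target per kilobase and was called in no comparison. It encodes cyclin G1, a target of p53 that binds regulatory subunits of protein phosphatase 2A, and lies at chr5:163437569-163446151 on the plus strand. Levels were 217, 239 and 225 CPM in the sh-Con libraries, 239, 234 and 237 CPM in sh1-*TUG1*, and 228, 230 and 236 CPM in sh2-*TUG1*. All knockdown libraries fell within or close to the range of sh-Con. The log2 fold changes were 0.058 (SE 0.0458, 95% interval -0.04 to 0.16, adjusted p = 0.393) and 0.026 (SE 0.0496, 95% interval -0.09 to 0.14, adjusted p = 0.703). The lower bounds were a level of 0.970 and 0.943 of that in sh-Con, and they rest on the spread between libraries alone. *CCNI*, another cyclin, rose by 0.24 and 0.29 (adjusted p = 0.00192 and 0.000475), and *CCNG2*, the closest relative, was at -0.14 (adjusted p = 0.455) and -0.24 (adjusted p = 0.155). The phosphatase subunits *PPP2R5A* and *PPP2R5C* were not called in sh1-*TUG1*, and in sh2-*TUG1* *PPP2R5A* rose by 0.33 (adjusted p = 0.00109) and *PPP2R5C* fell by 0.44 (adjusted p = 0.000621). Of the p53 targets *MDM2* and *CDKN1A*, *MDM2* was called in neither line and *CDKN1A* fell by 0.21 in sh1-*TUG1* (adjusted p = 0.00545) and was at -0.0090 in sh2-*TUG1* (adjusted p = 0.897).

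*NDRG3* encodes a protein of the N-myc downstream regulated family that is stabilised when lactate builds up in hypoxia, and lies at chr20:36651766-36746078 on the minus strand. Levels were 58.8, 52.1 and 56.7 CPM in the sh-Con libraries, 61.2, 61.7 and 60.5 CPM in sh1-*TUG1*, and 53.9, 63.2 and 63.0 CPM in sh2-*TUG1*. The sh1-*TUG1* libraries lay above all sh-Con libraries, and the first sh2-*TUG1* library lay among them. The log2 fold change was 0.13 (SE 0.0575, adjusted p = 0.135) in sh1-*TUG1* and 0.10 (SE 0.0764, adjusted p = 0.312) in sh2-*TUG1* by edgeR's quasi-likelihood test. Without the first sh-Con library the sh1-*TUG1* change of *NDRG3* was 0.16 with an adjusted p of 0.0466. All 3 of its relatives were called in at least 1 line. Of all genes, 24.8% were called in either direction in sh1-*TUG1* and 43.5% in sh2-*TUG1*. *NDRG1*, a hypoxia-induced gene, fell by 1.20 (adjusted p = 5.36e-07) in sh1-*TUG1* and fell by 1.17 (adjusted p = 5.18e-07) in sh2-*TUG1*, from 549 CPM in sh-Con to 239 and 244 CPM. *NDRG4* rose by 0.85 and 0.65 from 12.3 CPM, and *NDRG2* rose by 0.32 in sh1-*TUG1* (adjusted p = 0.00742) and was at 0.18 in sh2-*TUG1* (adjusted p = 0.0920).

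A list of 40 other genes known or proposed as miR-122 targets was read the same way, and 37 of them were tested. It includes *ALDOA* and *PKM*, which the study followed up from these libraries, and it was put together with results of these data known, so its direction is not independent evidence. In sh1-*TUG1*, 13 were called lower, 5 higher and 19 not called, with a median log2 fold change of -0.080 against 0.0027 over all genes, of which 12.3% were called lower and 12.5% higher. In sh2-*TUG1*, 14 were called lower, 6 higher and 17 not called, with a median of -0.046 against -0.0048 over all genes, of which 21.9% were called lower and 21.6% higher. Between the lines, 12 were called lower and 10 higher in sh2-*TUG1*, where 21.7% and 21.0% of all genes were.

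Past the 1.5-fold limit, 3 of the 37 tested genes of the list fell in sh1-*TUG1* and 4 in sh2-*TUG1*. Over all genes, 2.52% and 8.97% did so. *EGLN3*, an oxygen-sensing prolyl hydroxylase, fell by 1.30 (SE 0.0585) and 1.47 (SE 0.0668). *P4HA1*, a collagen prolyl hydroxylase, fell by 0.73 and 0.78. *GYS1*, the glycogen synthase of most tissues, fell by 0.55 in sh1-*TUG1* and fell by 1.39 in sh2-*TUG1*, where it went from 33.9 to 13.0 CPM. *ALDOA* fell by 0.59 (SE 0.0402, adjusted p = 1.18e-05) in sh1-*TUG1*, past the limit, and by 0.56 (SE 0.0451, adjusted p = 1.53e-05) in sh2-*TUG1*, short of it. *G6PC3*, a glucose-6-phosphatase, fell by 0.18 and 0.70. *PKM*, named because the study examined it, fell by 0.39 and 0.27 (adjusted p = 0.000243 and 0.000693), less than 1.5-fold in both lines. None of the list was a DEG upwards against sh-Con, where 2.44% and 4.35% of all genes were.

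**Figure D4:**
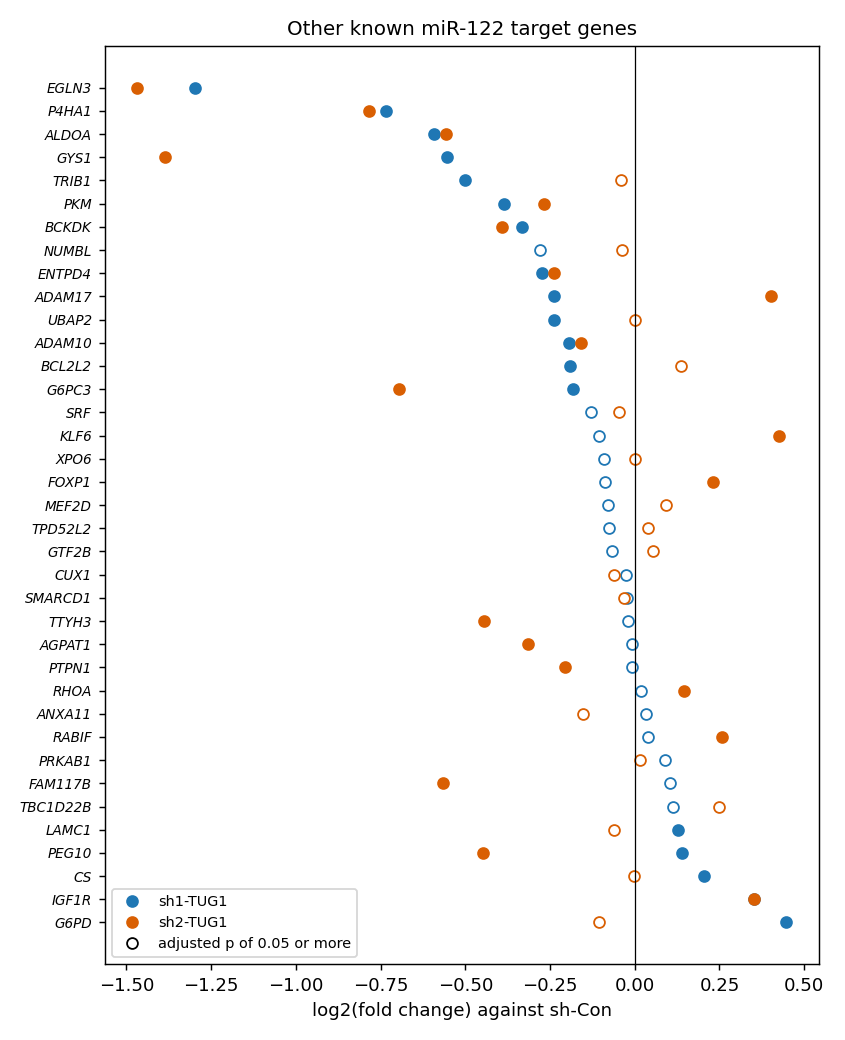
Log2 fold change against sh-Con (horizontal axis) of the 37 other known miR-122 targets, 1 gene per line in the order of the sh1-*TUG1* value, with blue points for sh1-*TUG1*, orange points for sh2-*TUG1* and open points where the adjusted p was 0.05 or more. *EGLN3* at the top is lowest in both lines (-1.30 and -1.47), most other points lie between -0.6 and 0.5, and filled points stand on both sides of zero.

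Genes of this list with and without a seed match did not part clearly. Of the 19 genes with an 8mer or 7mer-m8 site, 7 were called lower and 3 higher in sh1-*TUG1* (median -0.092), and 7 lower and 4 higher in sh2-*TUG1* (median -0.037). Of the 18 without, 6 were called lower and 2 higher in sh1-*TUG1* (median -0.014), and 7 lower and 2 higher in sh2-*TUG1* (median -0.075). Over all genes, 12.3% were called lower and 12.5% higher in sh1-*TUG1*, and 21.9% and 21.6% in sh2-*TUG1*.

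All tested genes were then divided by the seed match in the same way, whether known as targets or not. In sh1-*TUG1*, the median log2 fold change was 0.011 for 841 genes with an 8mer or 7mer-m8 site and 0.0038 for 11005 genes without. In sh2-*TUG1*, it was 0.026 for 839 genes with a site and -0.0062 for 10948 without. The share called lower was 10.3% with a site and 12.7% without in sh1-*TUG1*, and 21.5% and 22.6% in sh2-*TUG1*. The share called higher was 12.7% and 13.1% in sh1-*TUG1*, and 24.4% and 22.2% in sh2-*TUG1*. The 79 genes with 2 or more sites had medians of 0.011 and 0.034. By this median, messenger RNAs with a miR-122-5p seed match were not lower than those without in either line. For 8mers alone, the medians were 0.014 with and 0.0040 without in sh1-*TUG1*, and 0.0083 and -0.0048 in sh2-*TUG1*. With and without an 8mer, 10.8% and 12.6% were called lower in sh1-*TUG1*, and 23.4% and 22.5% in sh2-*TUG1*. Called higher were 11.4% and 13.1% in sh1-*TUG1*, and 21.8% and 22.3% in sh2-*TUG1*. Where a site in any coding transcript counted, the medians in sh1-*TUG1* were 0.0041 with and 0.0042 without. The genes with a site had longer 3′ UTRs (median 2581 against 881 bases in the sh1-*TUG1* table), and the part of length in these values was not tested.

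**Figure D5:**
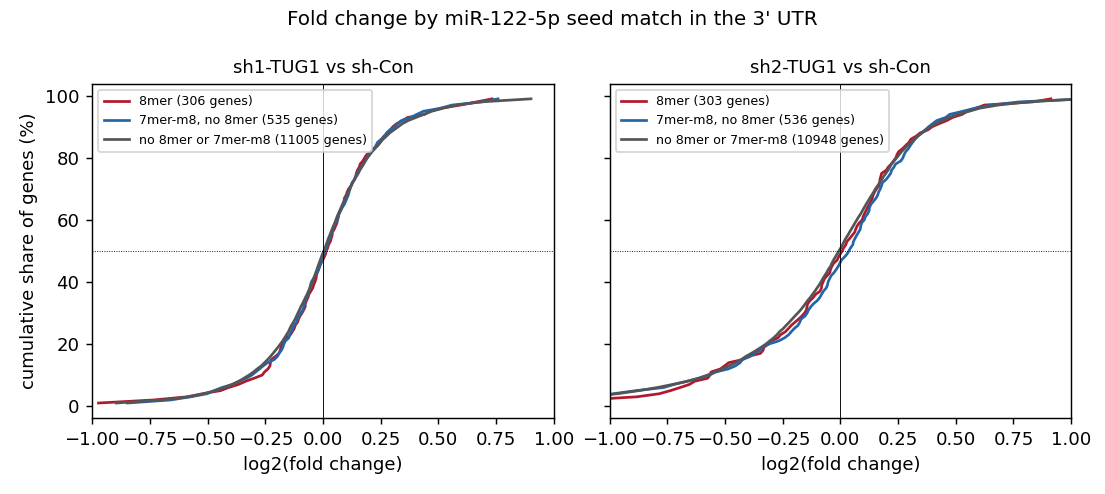
Cumulative share of genes (vertical axis, percent) by log2 fold change against sh-Con (horizontal axis, shown from -1 to 1), for genes with an 8mer, with a 7mer-m8 but no 8mer, and with neither, in each knockdown line. The 3 curves run close together in both panels and cross the midline near zero.

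Of 14 genes of the machinery that makes and uses microRNAs, 1 was called lower and 1 higher in sh1-*TUG1*, where 12.3% and 12.5% of all genes were. In sh2-*TUG1*, 0 were called lower and 3 higher, against 21.9% and 21.6% of all genes. None passed the 1.5-fold limit. They are named here after their values were seen. *DGCR8*, the RNA-binding partner of Drosha, rose by 0.20 (adjusted p = 0.0326) and 0.45 (adjusted p = 0.000532). *XPO5*, which exports microRNA precursors from the nucleus, fell by 0.21 in sh1-*TUG1* (adjusted p = 0.00999), and *PRKRA*, a Dicer partner, and *TNRC6A*, a silencing partner of Argonaute, rose by 0.21 and 0.17 in sh2-*TUG1* (adjusted p = 0.0105 and 0.0290). No Argonaute gene was called against sh-Con in either line.

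Over all relatives and partners of the 9 targets, 13 of 54 tested genes were called lower and 8 higher in sh1-*TUG1* (12.3% and 12.5% of all genes), and 11 of 53 lower and 16 higher in sh2-*TUG1* (21.9% and 21.6% of all genes). Of the markers of other cell types that were analysed, not all moved with the lines. Of 4 fibroblast markers only *PDGFRB* was analysed, with sh-Con at 19.3 to 21.8 CPM, sh1-*TUG1* at 31.9 to 34.4 CPM and sh2-*TUG1* at 53.1 to 58.5 CPM, and the collagen genes *COL1A1*, *COL1A2* and *COL3A1* were not analysed here. Of 3 endothelial markers, *PECAM1* and *VWF* summed to 8.75 to 9.46 CPM, 11.3 to 12.2 CPM and 12.2 to 13.6 CPM. Of 3 leukocyte and 2 neuronal markers, none was analysed here. Their part in the values of the 9 targets was not tested, and in cultured cells a change in RNA per cell cannot be told apart from a change in the share of cells that make it.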

How the data were processed

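RNA-seq libraries were made by the authors with a NEBNext Ultra RNA kit from 3 technical replicates of each of 3 HepG2 lines. The submitters' processing notes name HISAT2, StringTie and GRCh38. The counting tool, its strand setting and the versions are not given in the sources used here. The deposited tables, 1 per knockdown line, hold raw read counts per gene (13017 and 12953 rows, of which 11930 and 11871 carry an Ensembl identifier), FPKM values computed by the authors, which entered no test, and the authors' own test columns (log2 fold change and false discovery rate), which were not used. The 3 sh-Con count columns were identical in both tables. Unannotated genes, kept in the tests, held 1.46% and 1.41% of counts. The number of per-sample columns without a matching sample was 0. The *TUG1* row was not analysed here.

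Counts were tested with edgeR 4.0.16 (TMM factors, quasi-likelihood test, Benjamini-Hochberg adjustment over all rows) in R 4.3.3, with 6 libraries per comparison with sh-Con and all 9 for sh2-*TUG1* against sh1-*TUG1*. No further filter on low counts was applied. The SE was taken as the fold change divided by the square root of the F statistic. The script was tested on simulated data. At 33051617 to 39393293 reads per library, replicates of a group differed by more than counting error (chi-square per degree of freedom 6.41 to 25.8 over 10772 genes), so no pair was counted as 1 library. Same-numbered libraries did not deviate together (r of -0.33 to 0.011 over 11451 genes, 0 of 9 pairs over 0.1), so no replicate block entered the tests. An exact permutation test of 3 against 3 libraries cannot go below p = 0.1 and was not used.

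Seed matches were read from GENCODE release 29 transcripts, with 1 coding transcript per gene (longest coding sequence, then longest 3′ UTR). The miR-122-5p sequence is from RefSeq. The 9 targets and all gene lists were chosen with earlier results of these data known. All 9 targets and all tested relatives and partners could be named, and genes of other lists where they passed the DEG call in at least 1 line; exceptions are stated. A list of liver transcription factors is not reported here. A gene of like pattern was to be named for each target called in both lines, and no target was. The alternatives tried were library size alone, RLE size factors, filters on low counts (1 CPM in 3 libraries, or filterByExpr), DESeq2 1.42.0, all 9 libraries in 1 fit, the 6 knockdown libraries alone, a replicate block, each library left out in turn, any coding transcript, and 8mers alone.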

Additional observations from a re-analysis of the deposited data

Results flagged for a closer look

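Of the 9 targets, 3 differed between the sh2-*TUG1* and sh1-*TUG1* lines by a test of that difference itself, edgeR's quasi-likelihood test over all 9 libraries with Benjamini-Hochberg adjustment. The same test called 42.7% of the 12854 genes. Library values were wholly lower in sh2-*TUG1* for 27.6% of these genes and wholly higher for 27.8%. *FUNDC2* was 0.43 higher on the log2 scale in sh2-*TUG1* (SE 0.0533, adjusted p = 6.31e-05), higher in 3 of 3 libraries than in any sh1-*TUG1* library. *GALNT10* was at -0.26 (SE 0.062, adjusted p = 0.00559), lower in 3 of 3 libraries, while both lines lay below sh-Con. *SLC7A1* was 0.16 higher (SE 0.0374, adjusted p = 0.00547), higher in 3 of 3 libraries, with sh-Con between the lines. Each of these 3 calls held when any 1 of the 9 libraries was left out. No group was large enough for a test of single libraries that stand apart.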

How the results depend on the processing

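The calls of *GALNT10* and *FUNDC2* in sh2-*TUG1* against sh-Con, and of *SLC7A1*, *GALNT10* and *FUNDC2* between the lines, held under every alternative run. For sh1-*TUG1*, the count of targets called lower went from 0 to 1 with RLE size factors, with DESeq2 and with all 9 libraries (*GALNT10* in each). Leaving out 1 library gave 0 to 1 lower and 0 to 1 higher, both called without sh-Con replicate 1 (*GALNT10* and *NDRG3*). For sh2-*TUG1*, the count called lower went from 2 to 1 with the replicate block (*AP3M2*, -0.41, adjusted p = 0.0557), which changed no other call, and was 1 to 2 with 1 library left out. *CD320* was called in sh2-*TUG1* with library size alone (-0.19, adjusted p = 0.0483) and without sh-Con replicate 2. Between the lines, the count lower went from 1 to 2 with library size alone (*AP3M2*, -0.33, adjusted p = 0.0399) and was 1 to 2 with 1 library left out (*AP3M2* without sh2-*TUG1* replicate 3, adjusted p = 0.0329). Signs turned only for uncalled values near zero. *CCNG1* in sh2-*TUG1* was -0.0099 with library size alone and -0.0051 to 0.065 with 1 library left out. Between the lines, *NDRG3* ran from -0.064 to 0.046 and *SLC35A4* from -0.23 to 0.057 with 1 library left out. With any coding transcript, the median of genes with a seed match was 0.0041 in the first line and 0.017 in the second, and 8mers alone gave 0.0083 in the second. The cause of these changes was not tested. *SLC35A4* and *AP3M2* had the fewest reads of the targets, 127 to 331 per library, and the part of depth in their spread was not tested.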
